A study of Mus musculus with 8 samples.

Results

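The effect of deleting Zfx was compared between mouse embryonic stem cells (ESC) and haematopoietic stem cells (HSC) on all 8 arrays of the series. For each gene, the HSC effect (Zfx-cko minus Zfx-flox) minus the ESC effect (Zfx-null minus Zfx-flox) was tested on log2 values, and this difference is called the interaction. A positive interaction means that the HSC effect lies above the ESC effect. The comparison covered 11175 genes, detected in both cell types, of 18193 genes with a named probe set on the Mouse Genome 430 2.0 array. A probe set is the group of short probes that reports 1 transcript. A gene counted as detected when its representative probe set had a mean log2 signal at or above the 40th percentile in each cell type. Each mean ran over control and deleted arrays together.

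There were 4 groups of 2 arrays. The ESC were Zfx-flox and Zfx-null clones, grown without feeder cells on gelatin; their medium held LIF and Knockout SR at 15%. The HSC were lineage-negative Sca-1+ c-Kit+ bone marrow cells (Lin- Sca-1+ c-Kit+), sorted from pools of 4 to 6 littermates 4 days after the last injection of pI·C. The deleted HSC (Zfx-cko) came from Mx1-Cre+ Zfx flox/y mice and their controls (Zfx-flox) from Zfx flox/y mice without Cre, and both received pI·C, an inducer of interferon that also switches on the Mx1 promoter. Sorted cells of this phenotype include multipotent progenitors beside stem cells. ESC RNA went through 1 round of amplification from 2500 ng and HSC RNA through 2 rounds from 100 ng. The number of rounds therefore goes with cell type and cannot be told apart from it. Cre was present in deleted and absent from control HSC, so in HSC it cannot be told apart from the deletion. No label says that the arrays of a group come from separate cultures or animals, so every p-value measures the spread between these arrays, which may be technical.

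Zfx encodes a zinc finger transcription factor on the X chromosome, with an acidic activation domain and a long array of zinc fingers, and it binds near many transcription start sites. It is known as a regulator of self-renewal in embryonic and haematopoietic stem cells, and its closest relatives are the Y-linked Zfy genes and Zfp711. ESC are pluripotent cells of the early embryo that LIF keeps undifferentiated, whereas HSC are largely quiescent adult cells that give rise to all blood lineages. The question put by the design is which transcripts answer to the same deletion alike in these unlike cells.

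Arrays of the same group correlated at 0.980 to 0.987 over log2 values, deleted and control arrays of a cell type at 0.963 to 0.971, and arrays of different cell types at 0.765 to 0.789. A list of 8 ESC markers (Pou5f1, Nanog and Sox2 among them) summed to an intensity of 32069 to 33634 in ESC Zfx-flox, 20171 to 21192 in ESC Zfx-null and 181 to 228 in HSC. The 6 markers of the sorted HSC population summed to 5662 to 5942 in HSC Zfx-flox, 14776 to 15140 in HSC Zfx-cko and 1325 to 1553 in ESC, where Kit gave most of the sum. The T and natural killer cell list stayed between 27.2 and 70.7 on every array and the B cell list between 64.0 and 131. The log2 ratio of the 5' to the 3' Gapdh control was 0.38 to 0.44 in ESC and -4.68 to -4.18 in HSC. It was -4.18 and -4.25 in HSC Zfx-flox against -4.68 and -4.39 in HSC Zfx-cko, and its part in the HSC effects was not tested.

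The targeted gene is read by several probe sets that give unlike answers. The probe set 1422249_s_at (shared by Zfx and Zfa-ps in the annotation) gave 285 and 298 in ESC Zfx-flox and 1.32 and 0.878 in ESC Zfx-null. In HSC it was near background in controls (7.22 and 0.971) and in deleted cells (1.34 and 0.305), so it checks the deletion in ESC and checks nothing in HSC. The representative probe set 1425972_a_at rose in both, from 262 and 318 to 477 and 547 in ESC and from 696 and 752 to 1192 and 1209 in HSC. Its interaction was -0.07 ± 0.15 (SE), with an adjusted p of 0.742. The labels do not say whether this probe set lies in the deleted part. In a fit over all probe sets, others detected in both cell types rose in ESC and did not pass in HSC. The effects were 1.54 and -0.49 for 1419565_a_at (interaction -2.02, adjusted p 0.00271), 1.65 and 0.05 for 1428046_a_at (interaction -1.60, adjusted p 0.00309) and 1.33 and 0.10 for 1428047_s_at, shared with Zfa-ps (interaction -1.23, adjusted p 0.00696). A further shared one, 1439404_x_at, passed in neither (-0.12 and 0.00), so the interaction of Zfx differed by probe set. When all probe sets of the gene were averaged, the HSC effect was no longer called (adjusted p 0.145).

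The interaction passed an adjusted p of 0.05 (limma, Benjamini-Hochberg over the 11175 genes) for 3947 genes, 35.3% of those tested. The HSC effect lay above the ESC effect for 1967 (17.6%) and below it for 1980 (17.7%). This even split depends on scaling: with the medians of the arrays aligned within each cell type it was 1220 above and 2115 below, because the median interaction moved from 0.03 to -0.09. Differences of at least 2-fold numbered 695 above and 525 below. Effects were wider in HSC (SD over genes 0.61) than in ESC (0.44), and over genes, which are not independent replicates, the effects correlated weakly (Pearson r 0.22, Spearman correlation 0.19).

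Genes were then sorted by what each effect did. In ESC 1748 genes rose (15.6%) and 1740 fell (15.6%), and in HSC 2546 rose (22.8%) and 2408 fell (21.5%). Both effects passed for 2116 genes, of which 1480 moved in the same direction (13.2% of genes; 779 up, 6.97%, and 701 down, 6.27%). These were 42.4% of the ESC calls and 29.9% of the HSC calls. The other 636 moved in opposite directions (5.69% of genes), 310 up in ESC (2.77%) and 326 down in ESC (2.92%). A change in ESC alone was called for 661 genes (5.91%) and in HSC alone for 1462 (13.1%). Such a call required the interaction and that cell type's effect to pass while the 95% confidence interval of the other effect stayed within 1.5-fold. In the gene lists below, rises, falls and interactions above or below 0 are counted only at an adjusted p under 0.05, unless stated otherwise. The shares over all genes given above are the comparison for those counts.

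**Figure D1:**
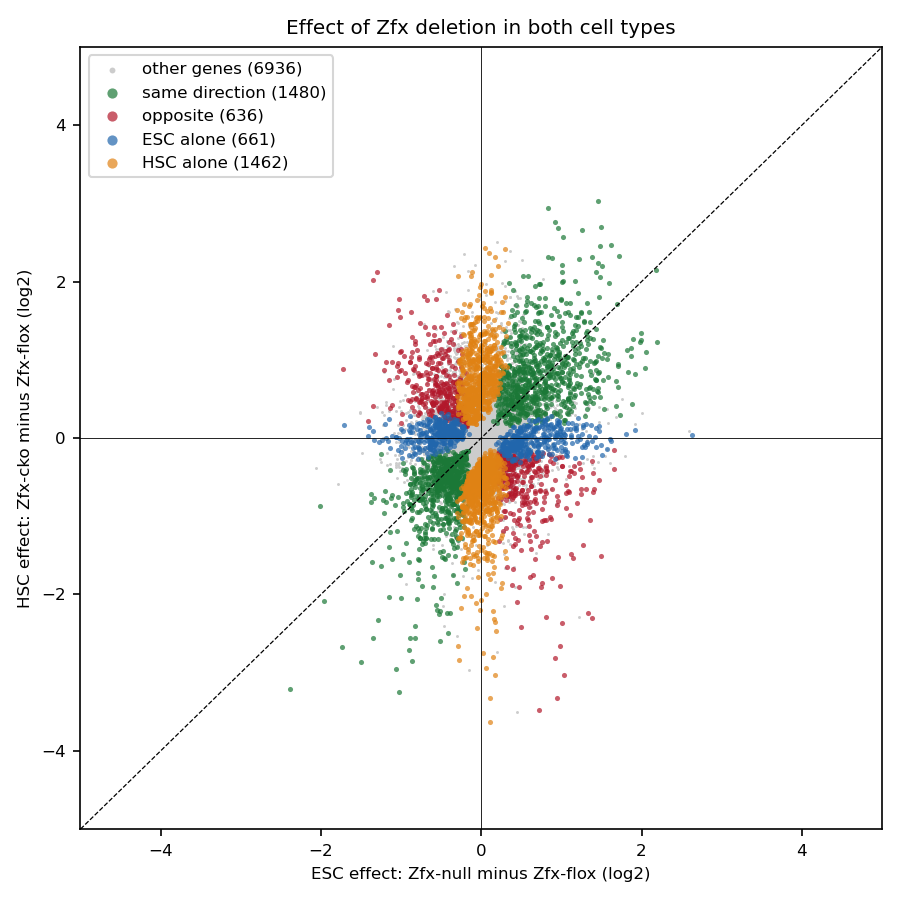
Each point is 1 of the 11175 genes, placed by its ESC effect (x axis, log2) and its HSC effect (y axis, log2), with colours for the classes and a dashed line where both effects are equal. The 1480 genes that moved in the same direction lie at the lower left and upper right and the 636 opposite genes at the upper left and lower right, while the vertical spread (SD 0.61) exceeds the horizontal one (0.44).

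A shared direction was not always a shared size. Of the 1480 genes, 504 had an interaction past the threshold, and for 379 of these the HSC effect was the larger. Only 725 (304 up and 421 down) were alike in size in the sense that the 95% interval of the interaction stayed within 1.5-fold. Other probe sets of same-direction genes repeated both signs in 1014 of 1376 cases (73.7%).

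The steepest shared decline, by the smaller of the effects in the cell types, was that of Cibar1, which encodes a membrane-shaping BAR domain protein. Its intensity was 627 and 690.0 in ESC Zfx-flox and 113 and 116 in ESC Zfx-null, then 1091 and 1119 in control HSC and 111 and 104 in deleted HSC. Deleted arrays of both cell types thus ended at nearly the same level, far below every control array. The effects were -2.39 in ESC and -3.20 in HSC, with an interaction of -0.82 ± 0.14 (SE, adjusted p 0.00199). Kdelr1, a receptor that returns escaped proteins to the endoplasmic reticulum, fell from 1660.0 and 1523 to 603 and 622 in ESC. It fell from 805 and 805 to 264 and 256 in HSC, and its effects of -1.36 and -1.58 were alike in size (95% interval of the interaction -0.46 to 0.01). Tmem147, an endoplasmic reticulum membrane protein, likewise fell in both (-1.25 and -1.63) with an interval of -0.58 to -0.18. Blvrb, a biliverdin reductase, fell from 154 and 159.6 to 63 and 44.2 in ESC and more steeply in HSC, from 1174 and 1333 to 201 and 200.1. Hpn, a membrane serine protease (-1.73 and -2.67), and Acer3, a ceramidase (-1.29 and -2.33), also fell in both, and the interaction passed for Acer3 (adjusted p 0.00363) but not for Hpn (0.0863).

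Among genes that rose in both, Zfp711, the paralogue of Zfx, rose from 20.4 and 33 to 191 and 150.2 in ESC and from 7.74 and 16.9 to 105 and 97.9 in HSC. The effects of 2.18 and 2.14 differed by -0.04 ± 0.36 (SE), but the 95% interval of that difference, -0.86 to 0.78, is too wide to call them alike. Filip1l, a filamin A interacting protein, rose by 1.69 in ESC and 1.71 in HSC and was alike in size. Procr, the protein C receptor that marks the most primitive HSC (EPCR), rose from 88.5 and 75.8 to 289 and 275 in ESC and from 278 and 335 to 1713 and 1789 in HSC. Il1r1, the receptor of interleukin 1, rose by 1.503 and 2.20. Ctla2b, a cysteine protease inhibitor that has a close relative in Ctla2a, rose by 1.60 and 1.98.

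Immediate early genes, which encode AP-1 and other factors that cells switch on within minutes of a stimulus, rose for most members in HSC and for fewer in ESC. Of 24 such genes, 10 rose and 3 fell in ESC, 18 rose and 1 fell in HSC, and 7 rose in both. The median effect was 0.20 in ESC and 0.72 in HSC, where the medians over all genes were -0.03 and 0.01. The interaction passed with the HSC effect above the ESC effect for 15 members and below it for 4. Fos had intensities of 126 and 119 in ESC Zfx-flox and 225 and 235 in ESC Zfx-null, and its control and deleted HSC arrays stood wider apart, at 542 and 598 against 4019.6 and 4923. Its interaction was 2.10 ± 0.15 (SE, adjusted p 2.54e-05). Jun rose by 1.48 and 2.46, and Ier3, an early response gene tied to ERK signalling, by 1.71 and 2.33. Fosl2, named after its values were seen, went the other way round, with the larger rise in ESC (2.20 against 1.23). Csrnp1 rose in HSC alone (1.97).

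Feedback inhibitors of ERK signalling showed the same mixture. Of 14, 3 rose in both, against 6.97% of all genes. The interaction passed above 0 for 7 and below 0 for 2, against 17.6% and 17.7% of all genes, so the 2 lie near that share. Dusp5, a phosphatase of nuclear ERK, rose from 201 and 255 to 666 and 666 in ESC and from 18.7 and 20.1 to 189 and 220.2 in HSC. Dusp1 rose by 1.43 and 2.12. Phlda1 rose more in ESC (1.84 against 0.84). The Dusp5 interaction of 1.20 was lost at a higher pseudocount (adjusted p 0.0566).

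The cell cycle gave both shared and unshared declines. Of 39 S phase and replication genes, 22 fell in ESC and 26 in HSC, 17 fell in both and 12 were alike in size. Their medians, -0.33 in ESC and -0.35 in HSC, lay close together. Lig1, the replicative DNA ligase, fell by -0.83 and -0.63 on the log2 scale. Ccne1, the cyclin that starts S phase, was 2258 and 1725 in ESC Zfx-flox and 1240.3 and 904 in Zfx-null, against 3965 and 4552 and then 711 and 708 in HSC, so its decline was the steeper in HSC (interaction -1.67 ± 0.22, SE). Cdkn1a, the p21 inhibitor of cyclin-dependent kinases, rose in both by 0.89 and 1.11 and was alike in size.

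Mitosis genes fell mainly in ESC. Of 40, 28 fell in ESC and none rose (0 also at an unadjusted p under 0.05, limma), while 13 fell and 3 rose in HSC, and the medians were -0.40 and -0.12. The interaction passed with the HSC effect above the ESC effect for 19 members and below it for 1. With aligned medians only 4 passed above. Bub1b, a spindle checkpoint kinase, changed in ESC alone (-0.72 and -0.05), and its interaction was lost with the mean of its probe sets (adjusted p 0.115). Nusap1, a spindle microtubule protein, fell in ESC and rose in HSC (-0.61 and 0.45). Ccnb2, a cyclin of mitosis, fell alike in both (-0.62 and -0.53).

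Mitochondrial genes held declines in each cell type. Of 46 mitochondrial ribosomal proteins, 19 fell in ESC, 33 in HSC and 18 in both, of which 16 were alike in size. The interaction passed the threshold below 0 for 14 and above 0 for none (0 also at an unadjusted p under 0.05, limma). Mrps16, of the small subunit, fell from 1624 and 1651 to 997 and 1014 in ESC and from 1369 and 1391 to 928 and 928 in HSC. Mrpl12, of the large subunit, fell in HSC (-1.28) with an ESC effect of -0.30. Of 45 genes of oxidative phosphorylation, 28 fell in ESC, 24 in HSC and 16 in both, with medians of -0.25 and -0.25. Over all genes 15.6% fell in ESC, 21.5% in HSC and 6.27% in both. Ndufb10, of complex I, fell by -0.54 and -1.04. With aligned medians the ESC declines were fewer, 9 mitochondrial ribosomal proteins and 8 genes of oxidative phosphorylation. Without replicate 1 of ESC Zfx-null the latter were 17, and without replicate 1 of ESC Zfx-flox the mitochondrial ribosomal proteins were 12.

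**Figure D2:**
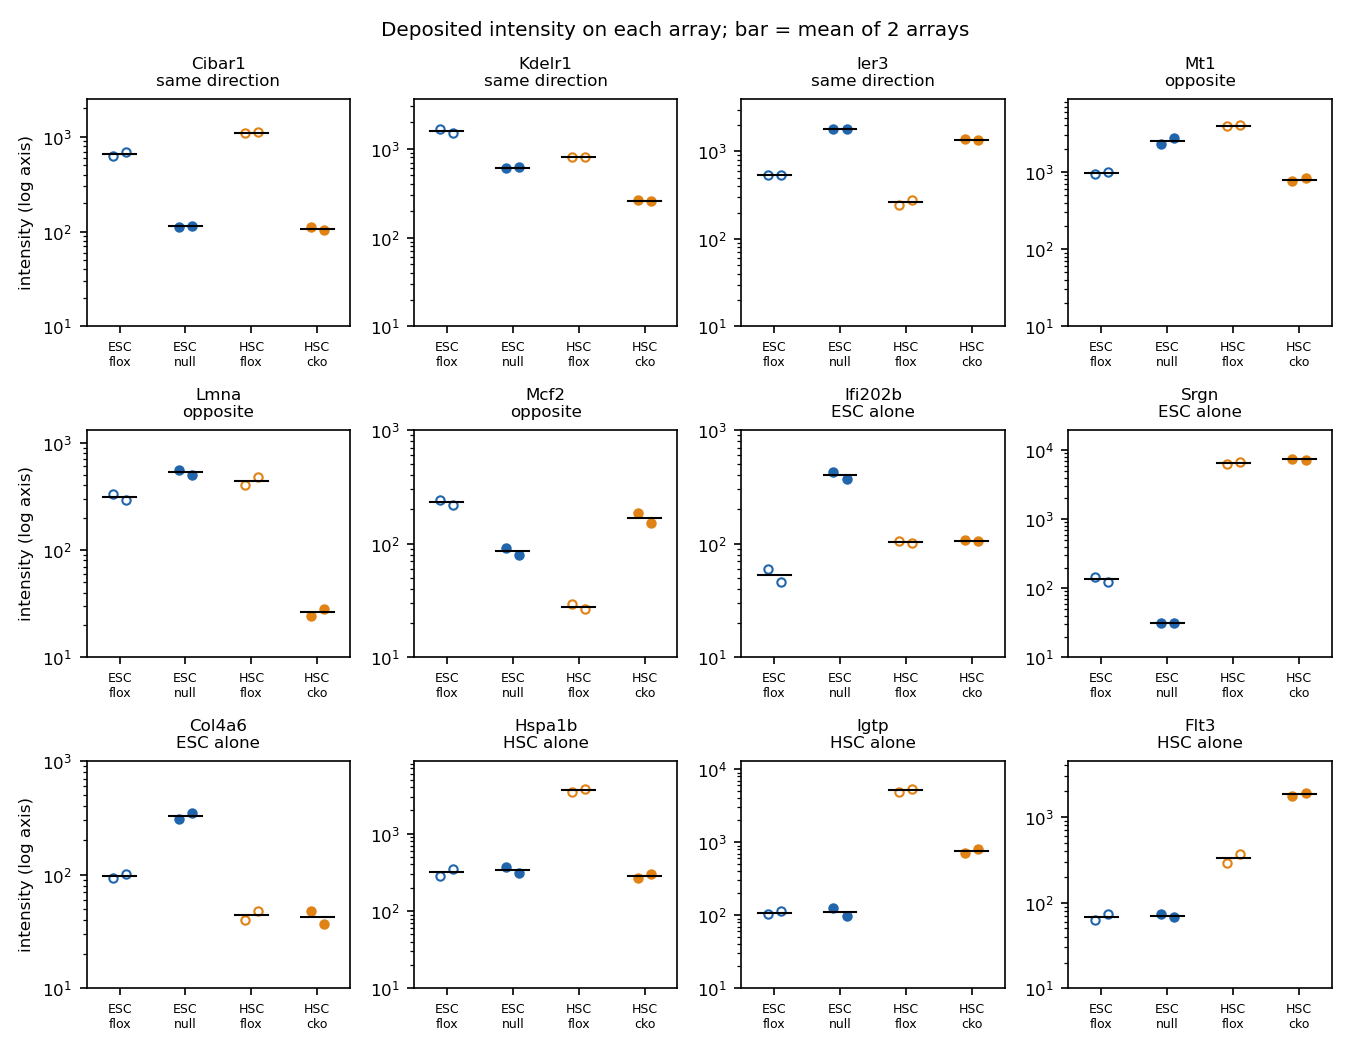
Intensity on each of the 8 arrays (log axis) for 12 genes, with open circles for control and filled circles for deleted arrays, blue for ESC, orange for HSC, and a bar at the mean of 2 arrays. In all 12 panels the 2 arrays of a group lie close together; Cibar1 falls in both cell types, Mt1 and Lmna rise in ESC and fall in HSC, Ifi202b rises in ESC only and Hspa1b falls in HSC only by the class rule.

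Opposite movement was largest for genes that rose in ESC and fell in HSC. Other probe sets of opposite genes repeated both signs in 439 of 630 cases (69.7%). Lmna, which encodes the nuclear lamins A and C, was 333 and 295 in ESC Zfx-flox and 561 and 496 in ESC Zfx-null. It was 401 and 477 in HSC Zfx-flox but 24.5 and 28.1 in HSC Zfx-cko, the lowest values of the 8 arrays. The effects were 0.73 and -3.48, and the interaction was -4.21 ± 0.19 (SE, adjusted p 4.18e-06). Its 2 other probe sets had the same signs but smaller interactions, -0.88 and -2.41, and the mean of all probe sets gave -1.75. Without replicate 2 of HSC Zfx-flox the value was -1.18. The representative probe set was chosen again in that fit, so this value belongs to another Lmna probe set. Myh10, nonmuscle myosin IIB, rose by 0.92 and changed by -2.82 in HSC, although its other probe set had an interaction of only -0.05. Itgb1, the integrin beta 1 chain, went from 3261 and 2933 to 5332 and 5516 in ESC and from 291 and 299 to 147 and 125 in HSC. Col5a1, a fibrillar collagen (1.04 and -3.03), and Sphk1, sphingosine kinase (0.94 and -3.33), moved the same way.

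The wider list of actin, SRF and YAP target genes, which cover the contractile cytoskeleton and adhesion, shows how unlike its members were. Of 30, 25 rose and 1 fell in ESC, with a median of 0.86. In HSC 12 rose and 5 fell, with a median of 0.20, and 4 were opposite. The HSC declines numbered 3 without replicate 2 of HSC Zfx-flox. Cnn2, calponin 2, rose alike in both (1.14 and 1.23), and Anxa3, an annexin, rose in ESC alone (1.37 and 0.17). Fibroblast and matrix genes, 15 in all, rose in ESC for 12 and in HSC for 7 members, and 2 fell in HSC. The 5 stroma markers summed to 8791 to 9128 in ESC Zfx-flox and 14379 to 15355 in ESC Zfx-null, and to 340 to 361 and 968 to 1023 in the HSC groups, where Pdgfrb made up most of it. Their part in the rise of the matrix genes was not tested.

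Metallothioneins, small proteins that bind zinc and copper, moved in opposite directions. Mt1 was 928 and 994 in ESC Zfx-flox and 2302 and 2786 in ESC Zfx-null, against 3889.9 and 4056 and 759 and 829.7 in the HSC groups. Control and deleted arrays did not overlap in either cell type, and the interaction was -3.69 ± 0.13 (SE, adjusted p 3.4e-06). Mt2 gave 0.64 and -1.75. Of the 21 genes of metallothioneins and oxidative stress, 5 fell and 4 rose in ESC, and 14 fell and 2 rose in HSC. The interaction passed below 0 for 11 and above 0 for 2. The 11 became 7 without replicate 1 of ESC Zfx-flox or without any 1 of the HSC arrays. Bag2, a cochaperone of Hsp70, was 248 and 276 and 733 and 792 in ESC but 658 and 582 and 212 and 205 in HSC, an effect of 1.49 against -1.51. Hebp1, a haem binding protein (1.34 and -2.24), and Ugcg, which makes glucosylceramide (1.12 and -1.48), did likewise.

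Genes that fell in ESC and rose in HSC included several with roles in blood cells. Mcf2, a guanine nucleotide exchange factor, was 243 and 218 in ESC Zfx-flox and 91.8 and 78.8 in ESC Zfx-null, and 29.2 and 26.3 in control HSC and 185 and 153 in deleted HSC. Its interaction of 3.42 ± 0.24 (SE, adjusted p 2.35e-05) was the largest with a positive sign over the 11175 genes. Ptprcap, a partner of CD45, gave -1.01 and 1.55, and Myo1f, a myosin of leukocytes, -1.73 and 0.88. Cd9, a tetraspanin found on both stem cell types, went from 3499 and 3528 to 1956 and 1862 in ESC and from 349 and 310.5 to 991 and 1081 in HSC. Car9, the carbonic anhydrase induced by hypoxia, gave -0.83 and 1.25, and Plk3, a polo-like kinase among the p53 targets, -0.86 and 1.29.

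Some pluripotency factors and chromatin genes also fell in ESC and rose in HSC. Klf4, a reprogramming factor, was 983 and 808 in ESC Zfx-flox and 622 and 601 in ESC Zfx-null, with 59.9 and 78.2 in control HSC and 281 and 308 in deleted HSC. Klf2, its relative that is also needed in blood cells, gave -0.91 and 0.74, and Tet1, which oxidises methylated cytosine, -0.70 and 1.42. The methyltransferases Dnmt3a (-0.55 and 0.68) and Dnmt3b (-0.36 and 0.93) behaved alike, as did Jarid2, a polycomb cofactor (-0.81 and 0.67). Of 31 genes of chromatin, polycomb and methylation, 1 rose and 14 fell in ESC. In HSC 7 rose and 7 fell, close to the shares over all genes (22.8% and 21.5%). A decline in ESC with a rise in HSC was called for 6, against 2.92% of all genes. Phc2, a polycomb subunit, went the other way (0.49 and -1.11). The HSC declines were 3 or 4 when replicate 1 or 2 of HSC Zfx-cko or replicate 1 of HSC Zfx-flox was left out.

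Only 16 of 35 core pluripotency genes were detected in both cell types, so Pou5f1, Nanog and Sox2 lie outside the comparison. Of the 16, 12 fell and none rose in ESC (0 also at an unadjusted p under 0.05, limma; median -0.67), and 4 fell and 3 rose in HSC (median -0.13, which was 0.09 without replicate 1 of HSC Zfx-flox). Over all genes 15.6% fell in ESC, and in HSC 21.5% fell and 22.8% rose, so the HSC counts of this list lie near those shares. Lefty1, a Nodal antagonist, fell alike in both (-1.14 and -1.20). Dppa5a, highly expressed in ESC, changed in ESC alone, from 11564 and 12444 to 7619.9 and 8164, against 82.6 and 75 and 75.1 and 64.6 in the HSC groups.

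Of 28 interferon response genes, none moved in the same direction in both cell types (1 at an unadjusted p under 0.05, limma). Opposite movement was called for 5 with a rise in ESC and 3 with a decline in ESC. Over all genes 13.2% moved in the same direction, and 2.77% and 2.92% were opposite with a rise or a decline in ESC. Gbp2, a guanylate binding protein, was 101 and 117 in ESC Zfx-flox and 301 and 298 in ESC Zfx-null, and 2548 and 2786 in control HSC and 1269 and 1301 in deleted HSC. Gbp2b, a near relative whose probes may share transcripts with it, gave 1.14 and -1.54. Ifitm1 and Ifitm3, membrane proteins that block virus entry, fell in ESC (-0.34 and -0.43) and rose in HSC (0.20 and 0.24). The immunity related GTPases Igtp and Iigp1 fell in HSC alone. Igtp was 4961 and 5330.4 in control HSC and 711 and 804 in deleted HSC, with 104 and 113 and 126 and 97.6 in the ESC groups, and Iigp1 gave 0.06 in ESC and -2.94 in HSC. Both HSC groups had been given pI·C, so these levels describe cells exposed to an interferon inducer, whereas no treatment of that kind is given for ESC.

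In ESC alone, Ifi202b had the largest rise of any gene of that class. This DNA binding protein of the interferon-inducible p200 family went from 59.4 and 46.2 to 429 and 369.8. In HSC it stayed at 105 and 101 in controls and 107 and 105 in deleted cells, an effect of 0.04 with a 95% interval of -0.33 to 0.40. The p200 genes are close copies, so its probes may also take up transcripts of its relatives. Psmb8, an immunoproteasome subunit (1.29 and -0.11), and B2m, the light chain of MHC class I (1.27 and 0.16), also rose in ESC alone. Of 13 genes of antigen presentation, 5 rose in ESC, and the interaction passed below 0 for 6 and above 0 for 1.

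Further genes rose in ESC alone. Col4a6, a type IV collagen chain, was 93.7 and 101 and 309 and 347 in the ESC groups and 39.9 and 47.9 and 47.5 and 37 in the HSC groups, where signal was low. Col4a2 (1.07 and -0.23), Cdh2, neural cadherin (1.27 and 0.14), and Lox, which crosslinks collagen (1.43 and -0.11), did the same. Hacd1, of very long chain fatty acid synthesis, gave 1.505 and -0.22. Among declines in ESC alone, Srgn, the proteoglycan of secretory granules, fell from 145 and 125 to 30.9 and 31.3. In HSC it was far higher on all 4 arrays (6394 and 6717 in controls, 7494 and 7252 in deleted cells), with an effect of 0.17. B4galt6, which makes lactosylceramide (-1.16 and 0.24), and Slc1a5, a glutamine transporter (-0.86 and 0.08), fell in ESC as well, and the Slc1a5 interaction was lost under 7 alternatives (highest adjusted p 0.0905).

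In HSC alone, protein quality control genes fell. Of 29 heat shock and chaperonin genes, 24 fell and none rose in HSC, 16 of them in HSC alone, with medians of -0.05 in ESC and -0.54 in HSC. The interaction passed the threshold below 0 for 20 members and above 0 for none. At an unadjusted p under 0.05 (limma) 1 member rose in HSC and 0 had an interaction above 0. Hspa1b, an inducible Hsp70, was 3475 and 3834 in control HSC and 269 and 297 in deleted HSC. In ESC it stayed at 285 and 346 and 372 and 308, and the deleted HSC arrays lay near these values. Its interaction was -3.73 ± 0.17 (SE, adjusted p 4.31e-06). Hspa1a, nearly identical in sequence so that the signals of the pair are uncertain, fell in both (-1.02 and -3.25), as did Hsph1, an Hsp110 (-0.32 and -1.25). Hspa4l, of the same family, was opposite (1.47 and -0.54), and Hspa8, the constitutive Hsc70, gave -0.15 and -0.13 without passing either test.

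The proteasome, which degrades ubiquitin-tagged proteins, fell in HSC for most members. Of 35 subunits and assembly factors, 30 fell and none rose in HSC (0 also at an unadjusted p under 0.05, limma), 21 of them in HSC alone, with a median of -0.55. In ESC 6 fell and 2 rose, with a median of -0.02. The ESC count was 3 without replicate 2 of ESC Zfx-flox and 2 without replicate 1 of ESC Zfx-null, whereas the HSC count ranged from 25 to 32 over the alternatives that kept the threshold and the filter on dim probe sets. Psmd1, of the regulatory particle, was 1737 and 1806 in control HSC and 919 and 833 in deleted HSC, with 2265 and 2357 and 2331 and 2296 in the ESC groups. Psmd12, of the same particle, gave -0.10 and -1.03. Psmc2, an ATPase subunit, rose in ESC (0.31) and fell in HSC (-0.41), and 1 of its 2 other probe sets repeated the HSC sign.

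Genes that make ribosomes and charge tRNAs fell mostly in HSC. Of 41 ribosome biogenesis genes, 32 fell in HSC and 12 in ESC, 11 in both and 16 in HSC alone. Without replicate 2 of ESC Zfx-flox the ESC declines were 6 and without replicate 2 of ESC Zfx-null 7. Nolc1, a nucleolar chaperone, fell more in HSC (-1.36) than in ESC (-0.35), and Ddx21, a nucleolar helicase, in HSC alone (-0.09 and -0.92). Of 19 aminoacyl-tRNA synthetases, 15 fell in HSC, 2 fell and 3 rose in ESC, and the interaction passed below 0 for 10. Gars, the glycine enzyme, gave 0.03 and -0.78. Of 32 nuclear pore and transport genes, 24 fell in HSC and 8 in ESC (5 without replicate 2 of ESC Zfx-null).

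The cytosolic ribosomal proteins themselves went the other way, with medians of -0.17 in ESC and 0.15 in HSC. Of 32, 16 had an interaction past the threshold above 0 and none below 0 (0 also at an unadjusted p under 0.05, limma). These small differences depend on scaling and on single arrays: the count was 5 after quantile normalization, 3 with aligned medians, and 9, 7 and 6 without replicate 2 of ESC Zfx-flox, replicate 1 of HSC Zfx-cko or replicate 1 of HSC Zfx-flox. Rpl12, of the large subunit, gave -0.36 and 0.43. Small nucleolar RNA host genes fell in ESC for 9 of 11. Gas5, such a host, was 4249 and 3940.0 and 2758 and 2924 in the ESC groups and 6399 and 6662 and 7064 and 7194 in the HSC groups.

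Erythroid genes fell in HSC and not as a group in ESC. All 12 detected members fell in HSC (median -1.39), and 2 fell and none rose in ESC (2 rose at an unadjusted p under 0.05, limma). The ESC median of 0.10 changed sign under 3 alternatives. Ermap, a blood group protein of erythroid cells, was 6344 and 6232 in control HSC and 551 and 531 in deleted HSC, with 58.7 and 35.9 and 72.5 and 64.1 in the ESC groups. Gata1, the erythroid master factor, gave 0.41 and -1.64, and Epor, the erythropoietin receptor, 0.15 and -1.32. The 3 erythroid markers on the array summed to 6276 to 6398 in control HSC and 563 to 578 in deleted HSC, nearly all from Ermap. Alas2 went from 37.8 and 17.2 in control HSC arrays to 3.55 and 3.01 in deleted ones, and Slc4a1 was 29.1 or less on every HSC array. In bulk samples such as these, fewer cells of a type and less RNA per cell cannot be told apart.

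Of 15 HSC transcription factors, 8 rose in HSC, 5 of them in HSC alone, and 1 fell (median 0.86). The interaction passed above 0 for 6 and below 0 for 1. Meis1, a homeobox factor of HSC, was 579 and 611 in control HSC and 3181 and 3305 in deleted HSC, with 104 and 104 and 119 and 145 in the ESC groups. Its interaction was 2.12, and the 2 other Meis1 probe sets gave 0.95 and 1.23. Without any 1 of the ESC arrays the interaction was 0.62 to 1.29. The representative probe set was chosen again in those fits, so these values belong to another Meis1 probe set and do not measure the weight of the array left out. Hlf, a bZIP factor of HSC, gave -0.03 and 1.53, and Gata2 -0.16 and 0.95. Ikzf2, the Helios zinc finger factor (1.35 and 1.27), and Etv6, an ETS repressor (0.82 and 1.07) rose in both and were alike in size.

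Of 18 HSC surface receptors, 11 rose and 1 fell in HSC, 5 rose and 3 fell in ESC, and 10 had an interaction above 0 (6 without replicate 1 or 2 of HSC Zfx-cko) against 3 below 0. Flt3, the cytokine receptor that marks multipotent progenitors as they lose self-renewal, was 289.7 and 367 in control HSC and 1757 and 1901 in deleted HSC. In ESC it stayed at 62.7 and 74 and 73.6 and 67.9, so its effects were 2.44 in HSC and 0.04 in ESC (interaction 2.39 ± 0.20, SE, adjusted p 5.11e-05). Tek, the angiopoietin receptor, rose in both (1.29 and 1.49), and Cd44, the hyaluronan receptor, in ESC alone (1.30 and 0.18). Satb1, a lymphoid chromatin organiser, rose in HSC by 1.64, and its ESC rise of 0.39 was lost under 7 alternatives (highest adjusted p 0.721). Of 9 megakaryocyte and platelet genes, 3 rose and 2 fell in HSC, where 22.8% of all genes rose and 21.5% fell. Pf4, of megakaryocytes, rose in HSC alone (0.12 and 1.85). In the myeloid list the HSC sum rose from 557 to 604 in controls to 1209 to 1312 in deleted cells, nearly all Lyz2 (494 and 438 and 1177 and 1153), and Camp and Itgam were below 8 on every HSC array. The part of such cells in the HSC effects was not tested.

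**Figure D3:**
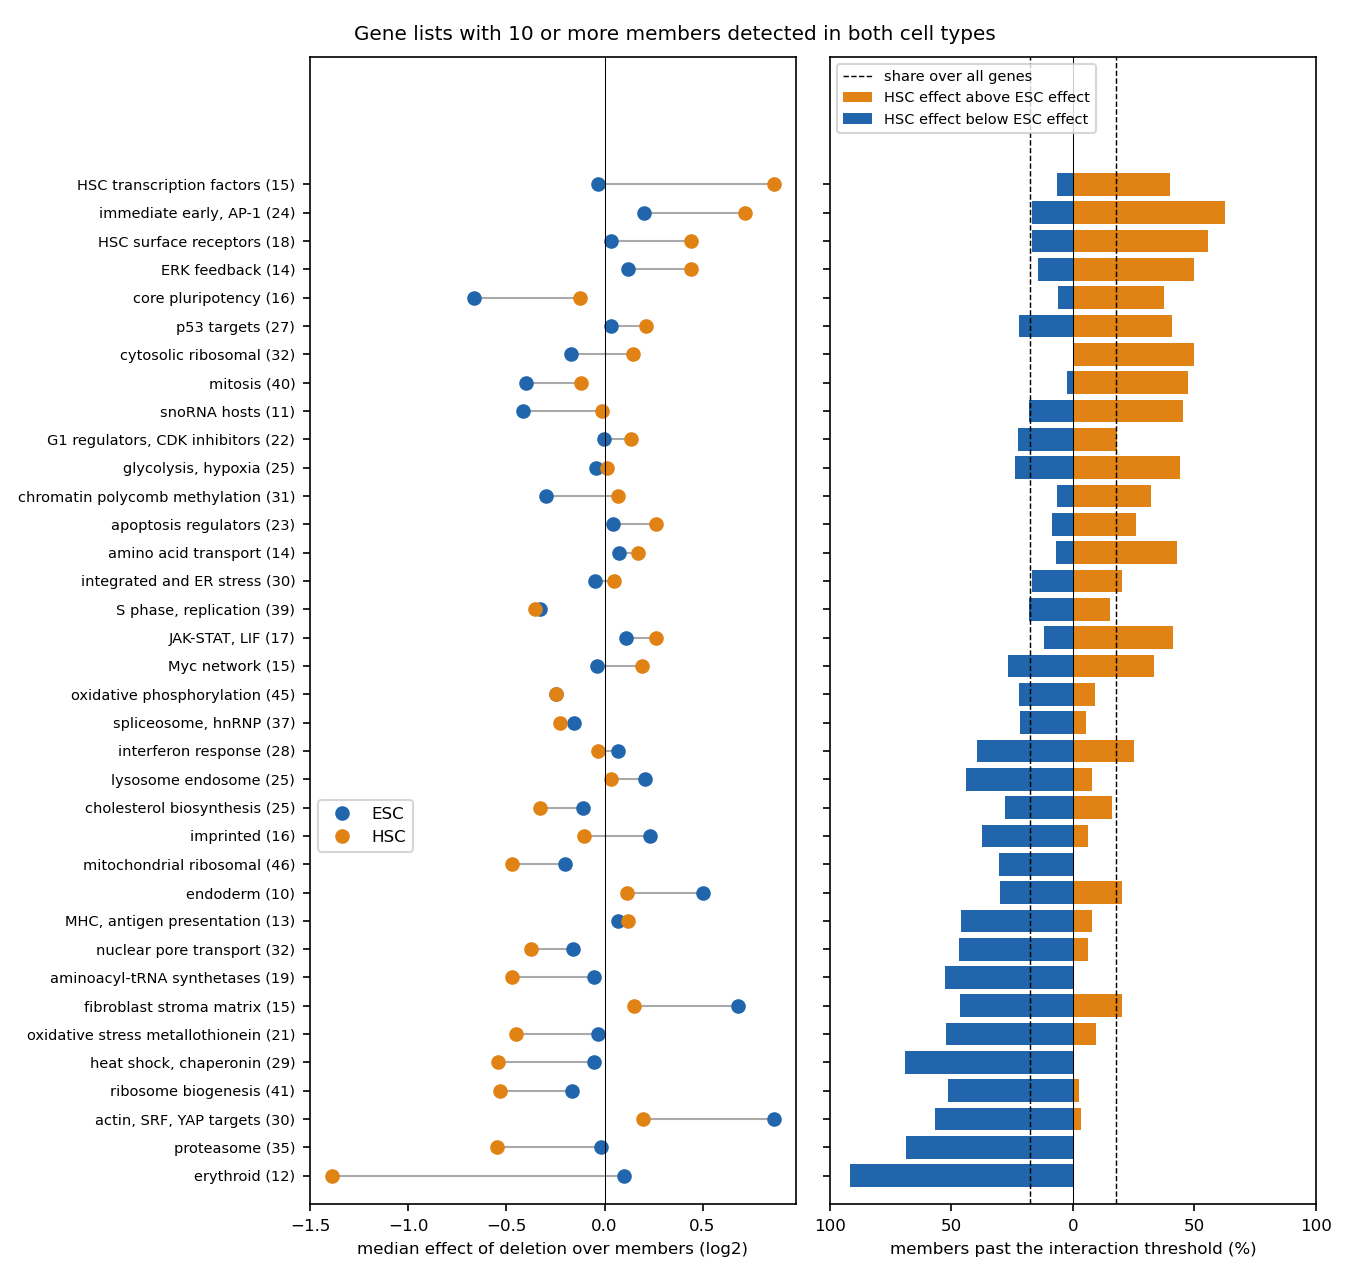
For each list with at least 10 members detected in both cell types (number in brackets), the left panel gives the median ESC effect (blue) and HSC effect (orange) in log2 units. The right panel gives the share of members whose HSC effect lay above (orange, to the right) or below (blue, to the left) the ESC effect past the threshold, with dashed lines at 17.6% and 17.7%, the shares over all genes. Erythroid, proteasome and actin genes stand at the bottom and HSC transcription factors and immediate early genes at the top.

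Growth factor signalling and stress lists were mixed. Of 17 JAK-STAT and LIF genes, 8 rose and 2 fell in HSC, and the interaction passed above 0 for 7 and below 0 for 2. Socs3, the feedback inhibitor of LIF signalling, rose in HSC alone (-0.07 and 1.48). Pim1, a survival kinase (-0.48 and 1.02), and Socs2, another feedback inhibitor (-0.45 and 0.86), fell in ESC and rose in HSC. Jak2 had an interaction of -1.68. Of 27 p53 targets, 3 rose in both and 11 had an interaction above 0 (7 without replicate 1 or 2 of HSC Zfx-cko) against 6 below 0. Over all genes 6.97% rose in both, and the interaction passed above 0 for 17.6% and below 0 for 17.7%. Btg2, an antiproliferative p53 target, rose in HSC alone (0.17 and 1.40). Of 25 glycolysis and hypoxia genes, the interaction passed above 0 for 11 and below 0 for 6. Among the former were Slc2a1, the glucose transporter (-0.11 and 1.12) and Egln3, an oxygen sensor (0.07 and 1.37). Of 25 lysosome and endosome genes, the interaction passed below 0 for 11 and above 0 for 2, and Lamp2 rose in ESC alone (1.12 and 0.04). In the integrated and endoplasmic reticulum stress list, Asns, asparagine synthetase, fell more in HSC (-0.30 and -1.40) and Nupr1 rose in both (1.57 and 1.01).

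The remaining lists were mixed, apart from declines in HSC for many spliceosome and cholesterol genes. Of 37 spliceosome and hnRNP genes, 21 fell and 2 rose in HSC, where 21.5% of all genes fell. In ESC 9 fell, against 15.6% of all genes, and 7 fell in both, among them Prpf3 (-0.55 and -0.70). Of 25 cholesterol and fatty acid synthesis genes, 12 fell and 4 rose in HSC, and 8 fell and 2 rose in ESC. Among the 5 that fell in both was Pmvk, phosphomevalonate kinase (-0.78 and -1.19). Scd1, the stearoyl-CoA desaturase, fell in HSC alone (0.12 and -1.03). Of 16 imprinted genes, the interaction passed below 0 for 6 and above 0 for 1, where the shares over all genes were 17.7% and 17.6%. Ndn, necdin, rose in ESC alone (0.58 and -0.15). Of 23 apoptosis regulators, 4 rose in both, against 6.97% of all genes. Among the 4 was Cflar, the inhibitor of caspase 8 (1.04 and 0.94), while Apaf1, of the apoptosome, rose in ESC alone (0.98 and 0.05). Of 14 amino acid transporters, the interaction passed above 0 for 6 and below 0 for 1, and Slc7a5, the leucine transporter, fell in both (-0.77 and -1.28).

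**Figure D4:**
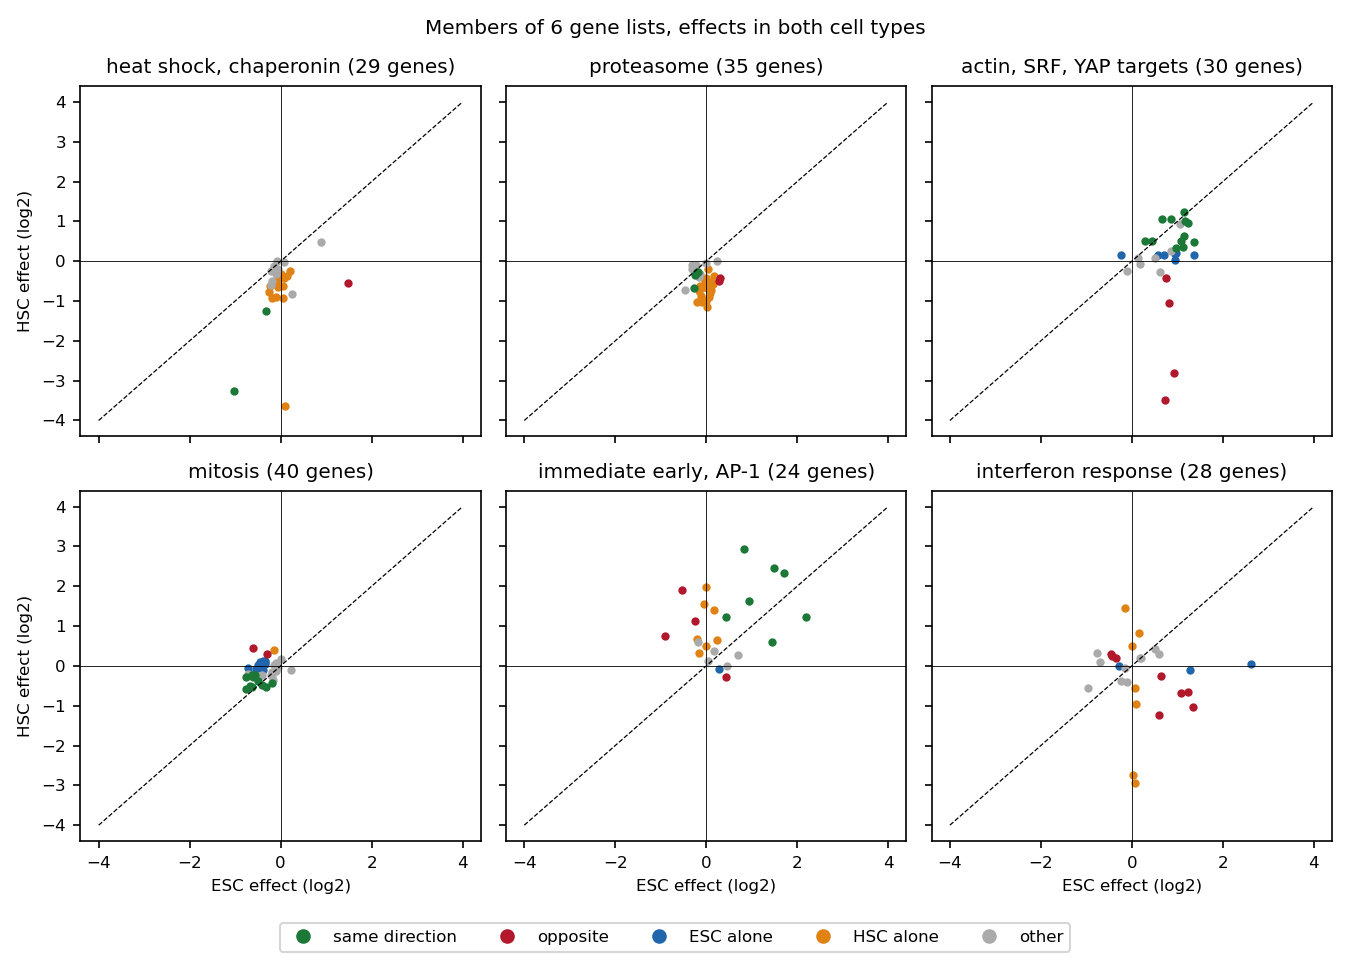
ESC effect (x axis, log2) against HSC effect (y axis, log2) for the members of 6 lists, 1 point per gene, coloured by class, with a dashed line where both are equal. Heat shock and proteasome genes sit below 0 on the HSC axis and near 0 on the ESC axis, mitosis genes sit left of 0, and the actin list holds 4 opposite genes below the others.

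Promoter sequence was set beside the classes because Zfx binds near start sites. The core of its binding motif, AGGCCT, reads the same on both strands. It was searched in RefSeq promoter windows (GRCm38.p6) of 300 bases, 250 before and 50 after the start, and a gene counted if any of its windows held it. Of 9101 genes with a window, 1138 held it (12.5%). The share was 18.0% (48 of 266) for genes that fell in ESC and rose in HSC, 15.4% (90 of 586) for those that fell in both and 8.57% (21 of 245) for those that rose in ESC and fell in HSC. It was 9.15% (57 of 623) for genes that rose in both, 9.82% and 12.1% for those that rose or fell in ESC alone, and 12.5% and 12.1% for those that rose or fell in HSC alone. These shares are a description without a test, and a match is neither a site nor a cause.

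Stretches of 120 bases ending at the last base before the start show the match, in capitals, for Ccnb2, which fell in both, and for Klf2 and Dnmt3a, which fell in ESC and rose in HSC. They lie at chr9:70421555-70421674 (minus strand), chr8:72318942-72319061 (plus strand) and chr12:3806860-3806979 (plus strand) of GRCm38.p6 and run 5′ to 3′ along the gene. The first capital stands 70, 25 and 98 bases before the start in that order.
Ccnb2: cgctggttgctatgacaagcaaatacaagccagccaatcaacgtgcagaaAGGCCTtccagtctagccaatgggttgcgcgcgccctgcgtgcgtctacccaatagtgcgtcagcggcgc
Klf2: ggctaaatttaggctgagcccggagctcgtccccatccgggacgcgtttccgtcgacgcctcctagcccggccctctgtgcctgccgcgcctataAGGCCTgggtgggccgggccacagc
Dnmt3a: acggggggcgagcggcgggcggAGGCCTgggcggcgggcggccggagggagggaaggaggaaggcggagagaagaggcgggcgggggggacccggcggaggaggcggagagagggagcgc

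The heat shock and interferon lists were searched for the motifs of their own regulators, chosen with the above results known. A pair of inverted GAA units of the heat shock element, GAANNTTC or TTCNNGAA, was searched on either strand. It was found in 14 of 25 heat shock and chaperonin genes with a window (56.0%) against 13.9% of all genes. The interferon response motif, GAAA followed after any 2 bases by GAAA, on either strand, was found in 12 of 25 interferon response genes (48.0%) against 3.51%. The lists were made of genes of these responses, so higher shares can follow from that choice. Their relation to the effects of Zfx deletion was not tested. Hspa1b and Igtp, which fell in HSC alone, and Gbp2, which rose in ESC and fell in HSC, are shown with those motifs in capitals. The stretches lie at chr17:34959239-34959358 (minus strand), chr11:58199436-58199555 (plus strand) and chr3:142620543-142620662 (plus strand). Igtp and Gbp2 both hold the interferon response motif and both fell in HSC, and of these only Gbp2 rose in ESC. The relation of the motif to the class was not tested.
Hspa1b: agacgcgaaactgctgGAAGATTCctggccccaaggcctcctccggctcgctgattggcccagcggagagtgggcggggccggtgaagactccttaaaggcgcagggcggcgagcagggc
Igtp: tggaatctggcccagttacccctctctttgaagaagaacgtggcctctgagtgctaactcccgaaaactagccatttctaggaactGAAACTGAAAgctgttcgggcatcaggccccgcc
Gbp2: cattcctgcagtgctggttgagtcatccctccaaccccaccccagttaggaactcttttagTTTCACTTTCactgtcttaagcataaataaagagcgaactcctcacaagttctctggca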

How the data were processed

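Affymetrix Mouse Genome 430 2.0 arrays were hybridized with RNA of 4 groups, 2 arrays each. The deposited values are linear intensity. Per the submitters' processing notes the authors used GCOS 1.4; every array has the same trimmed mean, and no source used here gives the other settings of the summarisation. Such scaling removes any global change in RNA per cell. Of 45101 probe sets, 64 controls were left out. The platform annotation gave 1 symbol to 34945 of the others, several to 932 and none to 9160; the 1-symbol probe set of highest mean log2 level stood for a gene, and other probe sets were checked for sign.

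Values were tested as log2(intensity + 14.2), the pseudocount being the 25th percentile of all values, so that fold changes of dim genes are understated. limma 3.58.1 in R 4.3.3 was fitted to the 8 arrays over 14034 genes detected in at least 1 cell type (lmFit with 4 group means and 4 residual degrees of freedom, eBayes with a variance trend), and the procedure was tested on simulated data. The Benjamini-Hochberg adjustment ran over 11175 genes for the interaction, 12676 for the ESC effect and 12533 for the HSC effect, with a threshold of 0.05. Errors are moderated standard errors. The number of arrays limits the precision: the median SE was 0.13 for an effect and 0.19 for an interaction.

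Named genes are Zfx, Zfp711, the 10 largest interactions per direction, the first 6 or 8 of each class and direction, and, per list, up to 4 members by interaction, 2 of shared direction and 2 by level. The members, lists, motifs and this rule were chosen with earlier results of these data known. Normalization, pseudocount, filter, choice of probe set, variance model, array weights, threshold, a replicate block and leaving out each array were varied.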

Additional observations from a re-analysis of the deposited data

Results flagged for a closer look

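Each result here is a difference between the ESC and HSC effects that passed the test of the interaction itself (limma, adjusted p under 0.05 over 11175 genes). The count of such genes was 3947. Among them 636 genes moved in opposite directions, 661 changed in ESC alone and 1462 in HSC alone.

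The 10 largest interactions with the HSC effect above the ESC effect, among genes whose array-to-array differences did not overlap between the cell types, were those of Mcf2 (3.42), 1700019D03Rik (3.36), N4bp3 (2.81), Tmem191c (2.68), Myo1f (2.61), Grasp (2.61), Ptprcap (2.56), 4930486L24Rik (2.56), Kbtbd11 (2.54) and Lonrf3 (2.53). For all but 4930486L24Rik and Kbtbd11 both effects passed with opposite signs.

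The 10 largest with the HSC effect below the ESC effect were those of Sphk1 (-4.27), Lmna (-4.21), Col5a1 (-4.07), Ermap (-3.95), Myh10 (-3.73), Hspa1b (-3.73), Mt1 (-3.69), Rnf128 (-3.64), Hebp1 (-3.58) and Ccdc13 (-3.51). Ermap, Hspa1b and Ccdc13 passed in HSC only, and the other 7 were opposite. The other probe set of Myh10 gave an interaction of -0.05. The number of amplification rounds goes with cell type on every array and cannot be told apart from it. Lmna was -1.18 without replicate 2 of HSC Zfx-flox, a fit in which another of its probe sets became the representative one. The other probe sets of Lmna gave -0.88 and -2.41.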

How the results depend on the processing

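The main counts were 3947 interactions, 1480 genes of the same direction, 636 opposite, 661 in ESC alone and 1462 in HSC alone. With medians aligned within each cell type, 415 genes were opposite. At an adjusted p of 0.01 there were 2375 interactions, 804 genes of the same direction, 287 opposite and 400 in ESC alone. All other alternatives kept these 5 counts within 1.5 times. Leaving out each array in turn gave 3096 to 3640 interactions, 1163 to 1232 genes of the same direction, 447 to 531 opposite, 500 to 563 in ESC alone and 1143 to 1340 in HSC alone; a lone array is then assumed to vary like the other groups. No label says that replicate numbers pair arrays, and deviations of same-numbered arrays correlated at 0.368 in ESC and 0.0862 in HSC. A fit with a replicate block within each cell type gave 4670 interactions, 1842 genes of the same direction, 887 opposite, 798 in ESC alone and 1622 in HSC alone.

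Of 7254 single-gene values under alternatives, 6899 kept direction and call, 352 lost the call and 3 reversed. With the mean of all probe sets the Snrpd3 interaction was 0.31 (adjusted p 0.175) and the Sf3a1 ESC effect 0.038 (adjusted p 0.883). With the probe set of highest lower mean the Jak1 HSC effect was -0.20 (adjusted p 0.155). In these 3 the probe sets averaged or chosen differ from the main one. The representative probe set was also chosen again after a change of normalization or pseudocount and after an array was left out. It can therefore differ there too, as it did for Meis1 and Lmna, and counts without an array can include such changes. The cause of the other losses was not tested. Genes dim in either cell type by the mean of its control and deleted arrays were outside the comparison. A gene dim in controls could thus enter through its deleted arrays, as may hold for Zfp711 in HSC (7.74 and 16.9 in controls, 105 and 97.9 in deleted cells).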

Other observations

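Sphingolipid genes, which were on no list and are grouped here after their values were seen, were spread over the classes. Acer3, a ceramidase, fell in both cell types, Ugcg and Sphk1 rose in ESC and fell in HSC, and B4galt6 fell in ESC alone.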
